A study of Mus musculus with 2 samples.

Results

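The C-type lectin and Klr receptor genes are a set of surface receptor genes of blood cells, described here in mouse long-term haematopoietic stem cells, or LT-HSCs, which renew themselves and give rise to all blood lineages. Members were all genes whose symbol in the array annotation began with Clec and a digit or with Klr and a letter from a to k, 62 of the 24203 genes measured, and they were covered by 121 transcript rows. Each gene was read from its brightest row, by the mean over both arrays, so that the row was chosen by its measured intensity. The set itself was selected on differences between these same arrays, so its values are a description without a test. One group was cia-cGAS WT and the other cia-cGAS knockout, cia-cGAS being a circular RNA by its label. Both were C57BL/6 mice aged 8 weeks kept under specific pathogen-free conditions, and LT-HSCs were sorted from flushed bone marrow. Each group had 1 NimbleGen array, so no value has a replicate error and every difference describes these 2 samples. The sort markers, the number of cells and any pooling of animals were not stated in the labels. Whether the knockout lacked the circular RNA was not analysed here.

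Both arrays carried transcripts of mature marrow cells as well as of stem cells. Of 11 LT-HSC marker genes, 6 were above the detection floor on both arrays, among them Kit and Ly6a, and Hlf was above it in the knockout alone. Procr, Slamf1 and Fgd5, which help to define LT-HSCs, lay below the floor on both. Of 15 neutrophil markers, 13 were above the floor on both arrays, the granule protein gene S100a8 reading 14.72 in wild-type cells and 15.56 in the knockout as log2 intensity, the scale of all levels given here. In such samples fewer cells of a type and less RNA per cell cannot be told apart.

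C-type lectin receptors carry an extracellular domain built on the fold first known from calcium-dependent sugar-binding proteins. The myeloid members, such as Dectin-1, Dectin-2 and Mincle, bind sugars or lipids of fungi, bacteria and dying cells. The activating ones among them signal through the kinase SYK and the adaptor CARD9, either directly or through the adaptor chains FcRgamma and DAP12. The Klr genes encode the lectin-like receptors of natural killer (NK) cells, whose ligands are mostly MHC class I and related proteins. Activating Klr receptors pair with adaptor chains, and inhibitory ones recruit phosphatases through tyrosine motifs in their tails. Myeloid cells also use a few members of the Klr class, of which Klra2 (Ly49B) and Klra17 (Ly49Q) are the best known. In the mouse most of these genes lie on chromosome 6, many of them in a region called the NK gene complex.

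Promoter sequences are shown for 7 members with higher levels in the knockout by 2-fold or more, the 5 with the largest differences and 2 others, because all are on chromosome 6 and were higher together. They come from RefSeq, assembly GRCm38.p6, cover 250 bases before and 50 after the annotated start site, and are written 5′ to 3′ on the strand of the gene. In the first 5, capitals mark GAGGAA or its reverse complement TTCCTC, the core letters of the motif bound by PU.1, an ETS family factor of myeloid cells.
Clec4d, chr6:123261857-123262156, plus strand: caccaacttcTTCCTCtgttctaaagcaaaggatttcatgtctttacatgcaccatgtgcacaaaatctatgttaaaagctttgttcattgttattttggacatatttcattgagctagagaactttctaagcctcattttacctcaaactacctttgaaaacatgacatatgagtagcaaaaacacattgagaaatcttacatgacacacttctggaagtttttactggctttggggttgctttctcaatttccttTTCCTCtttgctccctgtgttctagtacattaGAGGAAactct
Clec4e, chr6:123289822-123290121, minus strand: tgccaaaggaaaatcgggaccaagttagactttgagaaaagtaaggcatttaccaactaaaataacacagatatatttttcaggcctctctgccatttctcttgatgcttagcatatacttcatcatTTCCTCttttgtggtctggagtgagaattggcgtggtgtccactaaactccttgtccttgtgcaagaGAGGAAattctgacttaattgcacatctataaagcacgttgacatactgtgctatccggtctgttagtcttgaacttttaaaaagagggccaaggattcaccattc
Clec5a, chr6:40585756-40586055, minus strand: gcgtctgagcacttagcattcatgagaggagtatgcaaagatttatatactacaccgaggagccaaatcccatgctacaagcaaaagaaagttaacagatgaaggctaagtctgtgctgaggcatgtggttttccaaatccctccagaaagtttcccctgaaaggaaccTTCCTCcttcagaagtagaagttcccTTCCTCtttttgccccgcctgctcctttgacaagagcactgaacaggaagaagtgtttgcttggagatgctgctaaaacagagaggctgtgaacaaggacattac
Clec7a, chr6:129472730-129473029, minus strand: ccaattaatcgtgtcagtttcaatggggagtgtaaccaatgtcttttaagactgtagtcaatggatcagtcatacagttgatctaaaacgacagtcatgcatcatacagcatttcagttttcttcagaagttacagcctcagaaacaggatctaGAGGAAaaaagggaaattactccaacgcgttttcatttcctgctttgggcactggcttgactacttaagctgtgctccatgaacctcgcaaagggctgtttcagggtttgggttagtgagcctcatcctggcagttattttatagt
Klra2, chr6:131247313-131247612, minus strand: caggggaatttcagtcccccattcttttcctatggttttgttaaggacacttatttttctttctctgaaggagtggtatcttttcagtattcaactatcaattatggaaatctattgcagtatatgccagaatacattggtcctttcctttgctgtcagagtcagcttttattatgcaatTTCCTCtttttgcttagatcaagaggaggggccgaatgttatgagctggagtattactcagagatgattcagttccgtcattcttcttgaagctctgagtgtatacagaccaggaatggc
In the next pair, capitals mark GAAA, any 2 bases and GAAA again, the letters of the interferon-stimulated response element (ISRE), and a run of 22 bases that both promoters share.
Clec2d, chr6:129180365-129180664, plus strand: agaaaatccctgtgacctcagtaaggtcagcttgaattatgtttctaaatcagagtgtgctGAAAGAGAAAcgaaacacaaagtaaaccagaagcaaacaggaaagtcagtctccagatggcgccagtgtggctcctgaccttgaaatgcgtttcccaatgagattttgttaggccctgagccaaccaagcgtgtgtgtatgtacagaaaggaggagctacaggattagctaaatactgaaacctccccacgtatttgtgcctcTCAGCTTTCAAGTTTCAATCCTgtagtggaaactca
Clec2g, chr6:128934131-128934430, plus strand: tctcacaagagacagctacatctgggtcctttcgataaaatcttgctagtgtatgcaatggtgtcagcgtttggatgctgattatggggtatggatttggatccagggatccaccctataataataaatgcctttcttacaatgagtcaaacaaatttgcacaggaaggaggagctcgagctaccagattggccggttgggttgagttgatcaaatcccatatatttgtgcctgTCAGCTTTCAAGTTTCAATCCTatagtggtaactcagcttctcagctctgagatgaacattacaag

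Promoters were found for 44 of the 62 members. Letters GAGGAA, searched on both strands, were present in 9 of 13 myeloid Clec genes (69.2%), in 12 of 18 Klr genes (66.7%) and in 31.3% of the 27025 genes with a promoter in the table. The share was above that of all genes in myeloid Clec and in Klr genes alike. This motif was chosen after the values were seen. ISRE letters on either strand occurred in 3 members, Clec4b1, Clec4d and Clec2d, or 6.82%, against 3.99% of all genes. In Clec4d they lie on the reverse strand from the start site itself and overlap the second TTCCTC printed in capitals. In Clec2d they begin at position -189, counted from the start site. Letters of the interferon gamma-activated site (GAS), TTCNNNGAA, occurred in 4 members (9.09%) against 9.55% of all genes, among them Klra2, where they begin at position -190. Of the 32851 promoters in the table, the run of 22 bases was in those of Clec2d and Clec2g alone, beginning at position 15 in Clec2d and at position -16 in Clec2g. These are matches of letters, and binding was not measured.

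The detection floor came from 1029 rows of sensory receptor genes (smell, pheromone and taste), whose 95th percentile was 9.11 for the wild-type array and 8.97 for the knockout array. Of the 62 members, 25 were above the floor on both arrays, 2 in the knockout alone, 1 in the wild type alone and 34 on neither. The 28 detected members passed in part because of their level in 1 group, so their number and median support nothing by themselves. Of these 28, 10 were higher in the knockout by 2-fold or more and 2 were lower by as much. Over all 10859 genes above the floor on either array, 5.53% were that much higher and 4.06% that much lower. With no floor, 15 of the 62 members were that much higher and 4 lower, against 5.83% and 5.93% of all genes. A positive difference was found in 20 of the 28, against 48.4% of detected genes, and in 39 of all 62, against 47.1% of all genes measured. At least 4-fold higher were 5 members, Clec4d, Klra2, Clec4e, Clec5a and Clec2d, and none was 4-fold lower, against 1.55% and 0.267% of detected genes. The median difference, knockout minus wild type, was 0.22 over all 62 members and -0.04 over all genes, both without a floor. The members on the near side of the 2-fold line were Klra13 (-1.01), Klra12 (-1.01) and Klra3 (1.25), and those just short of it were Clec1b (-0.92), Clec4a1 (0.86) and Clec4b1 (0.66).

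**Figure D1:**
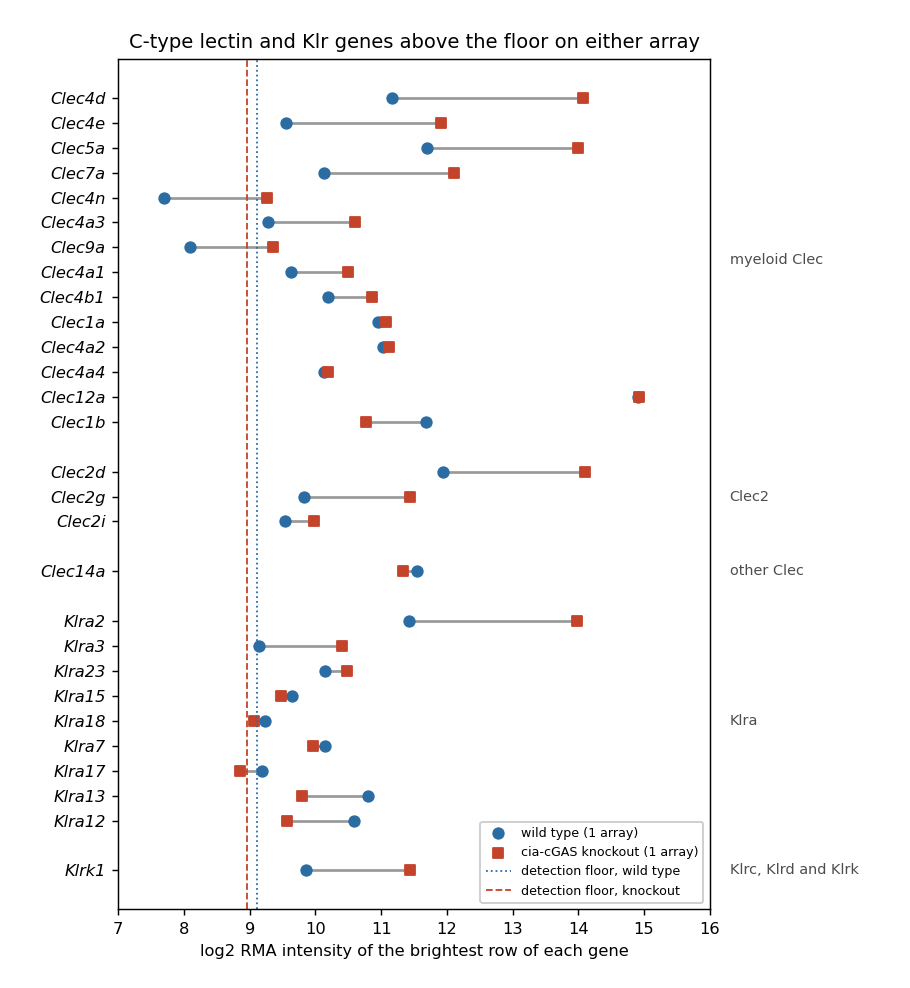
Log2 RMA intensity (horizontal axis) of the 28 members above the floor on either array, with 1 circle for the wild type and 1 square for the knockout, joined by a line, and the detection floors as vertical lines. The widest gaps to the right belong to Clec4d, Klra2, Clec4e, Clec5a and Clec2d, while Clec12a lies at 14.90 and 14.93. The symbols of 8 members are in the opposite order, furthest apart for Klra12, Klra13 and Clec1b.

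Receptors of the Clec4 cluster were higher in the knockout at its Clec4d and Clec4e end. Clec4d, which encodes the receptor MCL, a partner of Mincle and Dectin-2, read 11.16 in wild-type cells and 14.07 in the knockout. This 7.53-fold higher level was the largest difference among the members, and the 3 rows of the gene, all above both floors, differed by 2.56 to 2.91. The transcript is placed on chromosome 6 from 123212134 to 123225283 on assembly MM9 (gene ID 17474). Clec4e, next to it from 123232691 to 123239847, encodes Mincle, a receptor for mycobacterial and other glycolipids, and read 9.56 and 11.90, a 5.09-fold higher level in the knockout. Its other row, below the wild-type floor, differed by 2.97. Clec4n, the gene of Dectin-2, which binds mannose-rich fungal sugars, read 7.70 in the wild type, below the floor, and 9.27 in the knockout. Against the wild-type floor it was at least 1.12-fold higher.

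The rest of the cluster holds the DCIR-like genes, some of whose products carry an inhibitory tail motif. Clec4a3 read 9.28 and 10.60, a 2.49-fold higher level in the knockout. Clec4a1 read 9.63 and 10.49, and Clec4b1 read 10.20 and 10.86, so that both were higher in the knockout by less than 2-fold. Clec4a4 read 10.13 and 10.19. Clec4a2, the DCIR gene itself, read 11.03 and 11.12 from its brightest row, but its other 2 rows differed by 1.31 and 1.86, and the mean over rows was 1.08. Clec4b2 lay below both floors. These genes resemble each other closely, so that 1 may contribute signal to the row of another, and its part in the values was not tested. All 9 genes of the cluster had a positive difference.

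Outside that cluster, Clec5a and Clec7a were more than 2-fold higher in the knockout. Clec5a, which encodes the DAP12 partner MDL-1 of monocytes and neutrophils, read 11.69 in wild-type cells and 14.00 in the knockout, a 4.93-fold higher level. Its other row, at 8.30 in wild-type cells and 11.81 in the knockout, differed by 3.51. Clec7a, the gene of the beta-glucan receptor Dectin-1, read 10.14 and 12.10 from its only row, a 3.91-fold higher level. The gene lies on chromosome 6 from 129412574 to 129422781 on MM9 (gene ID 56644). Clec9a, the gene of DNGR-1, by which dendritic cells sense dead cells, read 8.08 and 9.35, above the floor in the knockout alone and at least 1.19-fold higher.

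The other myeloid members outside the cluster did not reach 2-fold. Clec12a, which encodes the inhibitory receptor MICL of granulocytes and monocytes, read 14.90 and 14.93, a difference of 0.02. It lies near the top of the scale, where differences can be compressed, the highest rows reading 15.89 and 15.84. The neighbouring Clec12b, also inhibitory, lay below both floors at 6.57 and 8.34. Clec1a, a receptor of endothelial and myeloid cells, read 10.95 and 11.07. Clec1b, the gene of CLEC-2, the SYK-coupled podoplanin receptor of platelets and megakaryocytes, was the 1 member of the group with a negative difference. It read 11.69 in wild-type cells and 10.76 in the knockout, and its other 2 rows, also above both floors, differed by -1.30 and -1.66. With the mean of its rows, -1.30, it passed 2-fold. All 4 platelet markers measured also had a negative difference. Ppbp read 13.24 and 11.06, Itga2b read 10.26 and 9.15, and Pf4, above the floor in the wild type alone, read 9.53 and 7.86. Intensities of the 4 genes added up to 11863 in wild-type cells and 3078 in the knockout, and the part of platelet or megakaryocyte RNA in the value of Clec1b was not tested.

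The Clec2 genes encode lectin-like ligands that NKR-P1 receptors recognise. Of the 3 detected ones, 2 passed 2-fold upward and 0 downward, against 5.53% and 4.06% of all detected genes. Which Clec2 genes counted as detected was itself decided on these same arrays. Clec2d, the gene of Clr-b, which is borne by most blood cells and restrains NK cells, read 11.94 in wild-type cells and 14.11 in the knockout, a 4.50-fold higher level from its only row. Clec2g read 9.83 and 11.43, a 3.04-fold higher level, although its other row, below the floor on both arrays, differed by 0.81. With rows averaged, Clec2g still differed by 1.21, but it was not counted as higher because its wild-type level then lay below the floor. Clec2i, the gene of Clr-g, read 9.53 and 9.98 and did not reach 2-fold. The remaining 4, Clec2e, Clec2f, Clec2h and Clec2l, were below both floors. The 7 Clec2 members all had positive differences, from 0.05 to 2.17, against 47.1% of all genes measured. Clec2j and Clec2m, of the same family but deposited under other symbols, differed by -1.06 and 0.52, both below both floors.

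Clec genes of other tissues and functions did not reach 2-fold. Clec14a, known from endothelial cells, was the only 1 of these 7 above a floor, at 11.54 in wild-type cells and 11.33 in the knockout. Clec11a, a secreted growth factor for bone and blood progenitors, read 8.59 and 8.32, and Clec16a, an intracellular protein of endosomes, 7.67 and 8.53. Clec3b, Clec4f, Clec4g and Clec18a were below both floors as well.

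Among the 20 Klra (Ly49) genes, which encode receptors for MHC class I, no common direction was seen. Klra2 had the second largest difference of all members. It read 11.43 in wild-type cells and 13.98 in the knockout, a 5.85-fold higher level from its only row, placed on chromosome 6 from 131169252 to 131197380 on MM9, apart from the rest of the family. Klra17, the other gene of the family known from myeloid cells, read 9.19 and 8.86, above the floor in wild-type cells alone, with differences of -0.33 to 0.65 among its 3 rows. Klra3 read 9.15 and 10.40, a 2.38-fold higher level, but its 4 rows ranged from -0.16 to 1.25 and the mean over rows was 0.47. Klra12 read 10.59 and 9.57 and Klra13, a pseudogene in the reference, 10.80 and 9.79, both just over 2-fold lower in the knockout. The other row of Klra13, also above both floors, differed by -0.40, and the mean over its rows was -0.71, short of 2-fold. With loess centring Klra12 and Klra13 differed by -0.97 and -0.97, also short of 2-fold. With a floor at the 99th percentile neither was counted as lower. Their placements overlap each other and that of Klra23, which read 10.14 and 10.49, a difference of 0.35. Klra7 read 10.15 and 9.96. Klra15 read 9.64 and 9.48, and Klra18 read 9.23 and 9.07, so that these 3 genes differed little between the arrays in their brightest rows. The other row of Klra18, above the wild-type floor alone, differed by -1.32, and the mean over its rows was -0.74. Rows of Klra7 ranged from -1.09 to 0.40. The other 11 Klra genes lay below both floors.

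The number of Ly49 genes differs between mouse strains, and 8 of the 20 Klra genes, Klra12 among them, had no entry by gene ID in the RefSeq table of the C57BL/6J assembly. These 8 had differences from -2.20 to 1.20, both ends from genes below both floors, and 1 of them was positive. Of the 8, 5 lay below both floors, and the 3 above both floors differed by -1.01 to -0.16. Close sequence likeness within the family means that the row of 1 gene may hold signal of another, and single Klra values are uncertain for that reason. Over the 20 genes, 6 had a positive difference and the median was -0.20.

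Of the other Klr genes, Klrk1 alone was above a floor. It encodes NKG2D, the activating receptor for stress-induced ligands, and read 9.86 in wild-type cells and 11.44 in the knockout, a 2.99-fold higher level. That brightest row is placed over a long interval, from 129382356 to 129572652, which also holds Clec7a. The other 2 rows, placed at the gene's own site, were below the wild-type floor and above the knockout floor, and they differed by 2.03 and 2.81. Klrd1, the gene of CD94, read 8.78 and 8.57, and Klrc1, the gene of its inhibitory partner NKG2A, differed by -0.26, both under the floors. Klrc2, Klrc3, the 4 Klrb genes (NKR-P1), the senescence marker gene Klrg1 and Klri2 were below both floors as well. Klraq1 matched by its letters only, since it is now named Ppp1r21 and encodes no lectin-like receptor, and it also lay below both floors, at 8.21 and 8.09.

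NK cell markers were mostly low on both arrays. Of 11 measured, 3 were above the floor on both, 1 in the wild type alone and 2 in the knockout alone. Ncr1, which encodes the NK receptor NKp46, read 9.35 and 9.05, and the granule protein gene Nkg7 read 9.12 and 8.40, with another row that differed by 0.63. Gzma read 9.19 and 9.62. Gzmb, at 8.63 and 9.26, and Il2rb, at 8.78 and 9.39, passed the knockout floor alone, and another row of Il2rb differed by -0.72. Ccl5, a chemokine gene that other cells use too, read 11.37 and 14.12. Of the 6 detected NK markers, 4 had a positive difference, and of all 11, 6 had. Eomes, Prf1 and Itga2 were below both floors. Intensities of the 11 genes added up to 6481 in wild-type cells and 21662 in the knockout, most of the latter from Ccl5. The part of NK cells in the value of Klrk1 was not tested.

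Set side by side, the myeloid Clec genes and the Klr genes gave different counts. In the myeloid Clec group 5 of the 14 detected genes passed 2-fold upward and 0 downward. A positive difference was found in 15 of all 16, and the median over all 16 was 1.06. Of these 16, 2 were below both floors and 2 above the knockout floor alone. Over the 12 above both floors the median was 0.76, and over the 14 detected, with lower values raised to the floor, 0.45. In the Klr group, Klraq1 left out, 3 of the 10 detected genes passed 2-fold upward and 2 downward, 13 of all 31 were positive and the median was -0.16. With Klra2 and Klra17 also left out, 2 of 8 detected genes were higher, 2 lower and the median over all 29 was again -0.16. Over all detected genes 5.53% were higher and 4.06% lower, and over all genes measured the median was -0.04. The sign of the Klr median was not stable, being -0.16 over the 10 detected genes. It was 0.35 over 7 with the mean of rows and 0.80 over 6 with the floor at the 99th percentile. Without the Klra genes that lack a RefSeq entry it was 0.35 over 7. With 1 array in each group no test of the difference between the groups could be made.

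**Figure D2:**
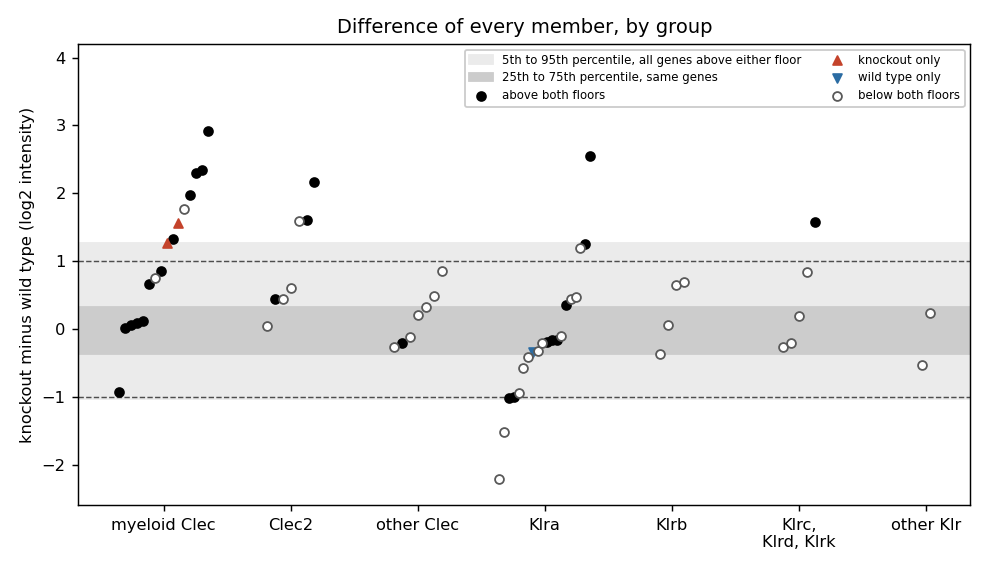
Difference of every receptor member, knockout minus wild type on the log2 scale (vertical axis), by group, with filled symbols for members above a floor, open circles for those below both, shaded bands for all genes above either floor and dashed lines at 2-fold. Of the 16 myeloid Clec genes 15 lie above 0, and the Klra genes spread from -2.20, an open circle, to 2.55.

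Several rows were available for 32 members, which allowed the same gene to be read from other probes on the same arrays. For Clec4d each row was above both floors and more than 2-fold higher in the knockout. The other rows of Clec4e, Clec5a and Klrk1 also had positive differences, but each was below the wild-type floor, so the size of those differences is uncertain. For Clec1b each row was lower, from -1.66 to -0.92. Rows of Clec4a2, Klra3, Klra18, Klra17 and Klra13 disagreed, by 1.77, 1.41, 1.16, 0.99 and 0.60 from lowest to highest. Klra7 had 8 rows, of which 1 was positive, with differences of -1.09 to 0.40. Over the 2896 genes with several detected rows, the pooled SD of differences between rows of 1 gene was 0.37. Clec7a, Clec2d, Klra2 and Clec4a3 have 1 row each and could not be checked in this way.

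**Figure D3:**
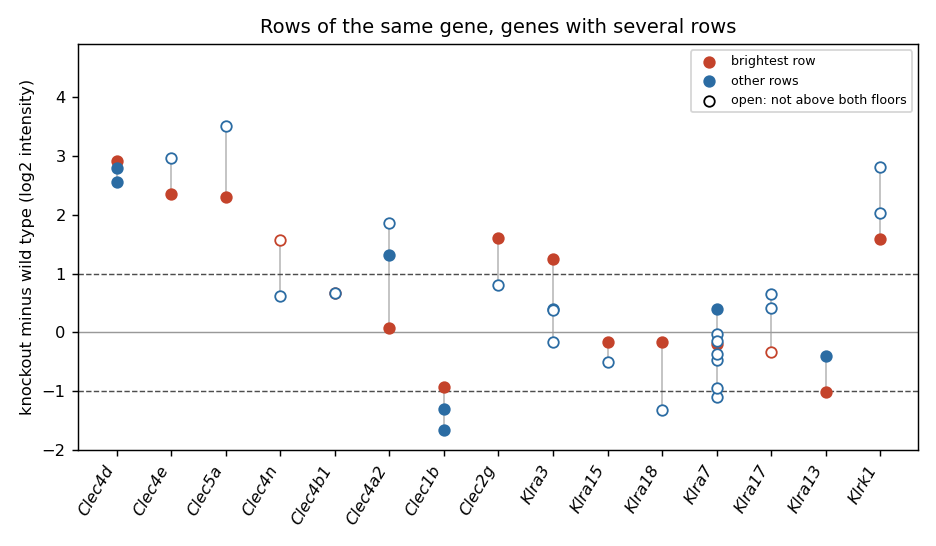
Difference between knockout and wild type on the log2 scale (vertical axis) for each transcript row of the detected members with several rows, red for the brightest row, blue for the others and open where a row was not above both floors. The rows of Clec4d lie between 2.56 and 2.91, while those of Clec4a2 run from 0.08 to 1.86.

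By position, 55 of the 62 members lie on chromosome 6, in 2 main groups. The first, from Clec4a1 to Clec4e (122871875 to 123239847 on MM9), holds 9 genes, all members, and its 2 largest differences stand side by side at the Clec4d and Clec4e end. The second, from Klrb1a to Klra2 (128559366 to 131197380), holds 42 members and 19 other measured genes. Of these 42 members, 18 were above a floor and 24 had a positive difference. At 2-fold or more, 6 were higher and 2 lower, against 5.53% and 4.06% of all detected genes. Clec2g, Clec2d, Klrk1 and Clec7a were higher, Clec12a and Clec1b lie between them, and Klra3 and Klra2 follow at the far end. The 2 lower ones, Klra12 and Klra13, lie between Clec7a and Klra3. Of the 19 other genes, 4 were above a floor. Of these, 2 were at least 2-fold higher, against 5.53% of all detected genes. They were the lymphocyte activation marker gene Cd69 and Olr1, which encodes the scavenger receptor LOX-1. Both encode C-type lectin-like proteins. Cd69, at 8.39 in wild-type cells and 14.03 in the knockout, was at least 30.3-fold higher, more than any member, and Olr1, next to Clec7a, read 9.48 and 11.19. Gabarapl1, an autophagy gene between Olr1 and the Klrd1 and Klrc genes, read 13.77 and 13.67. This view of positions was chosen after the values were seen.

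**Figure D4:**
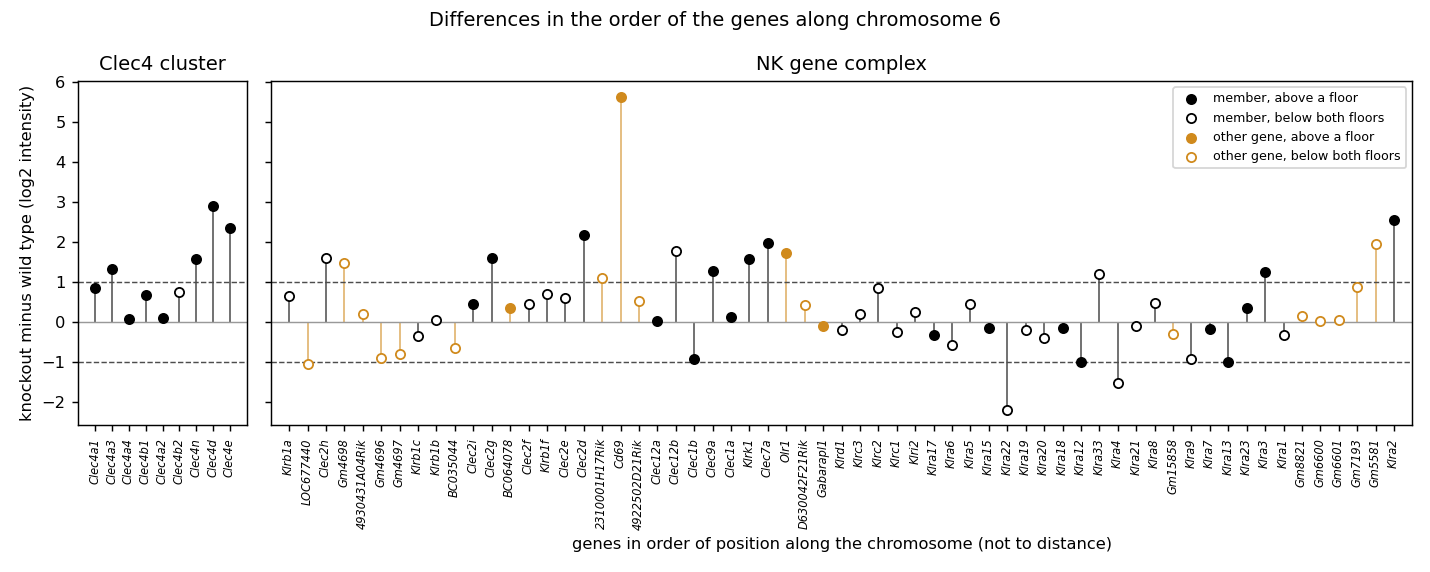
Differences on the log2 scale (vertical axis) of all genes measured in both regions of chromosome 6, in their order along it, black for members and orange for other genes, filled above a floor and open below both. Clec4d and Clec4e stand at the right end of the left panel, and Cd69 is the highest point of the right panel at 5.64.

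Genes of the signalling pathway of the activating myeloid receptors, listed together with genes of its products, were partly higher. Of 31 genes of the SYK, CARD9 and ITAM adaptor list, 23 were above a floor, 4 were at least 2-fold higher and 0 lower, against 5.53% and 4.06% of all detected genes, and the median over all 31 was 0.43. The 4 higher genes were Fcer1g, Rel and the product genes Il1b and Cxcl2. Fcer1g, which encodes the FcRgamma chain used by Mincle, MCL and Dectin-2, read 12.09 and 13.55, a 2.74-fold higher level. Tyrobp, the gene of DAP12, which pairs with MDL-1, read 12.07 and 12.45. Syk read 12.15 and 12.22, and Card9 lay below both floors at 8.74 and 7.41. Hcst, the gene of DAP10, which pairs with NKG2D, passed the wild-type floor alone, at 9.38 and 8.69. The NF-kB subunit gene Rel read 11.45 and 13.33. Of the genes of products of the pathway, Il1b read 10.13 and 13.02. Cxcl2 read 10.47 and 13.23, but its rows ranged from -0.01 to 2.76. Of the phosphatase genes on which inhibitory receptors depend, Ptpn6 (SHP-1) read 11.41 and 12.08, Inpp5d (SHIP1) 11.90 and 11.73 and Ptpn11 (SHP-2) 10.79 and 10.39, none past 2-fold.

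Ligand genes of the Klr receptors did not pass 2-fold in either direction. Of 14 measured, 5 were above the floor on both arrays. The MHC class I genes H2-K1 and H2-D1, whose products Ly49 receptors bind, read 14.16 and 14.15, and 15.26 and 15.32. H2-T23, the gene of Qa-1, the ligand of CD94 with NKG2A, read 11.72 and 12.04, and B2m, the light chain gene, 15.22 and 15.55. The NKG2D ligand genes Raet1a to Raet1e, H60b, H60c and Ulbp1 were all below both floors.

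Most neutrophil and monocyte markers also had positive differences, on the same arrays as the Clec genes. Of 15 neutrophil markers, 13 of them detected, 2 were at least 2-fold higher and 0 lower, against 5.53% and 4.06% of all detected genes. A positive difference was found in 12, and the median over all 15 was 0.32. Itgam read 9.91 and 11.39 and Cxcr2 read 11.52 and 12.56. Mpo, the 1 detected neutrophil marker with a negative difference, read 13.81 and 13.40. The summed intensities of the neutrophil markers were 185092 and 247609. Of 14 monocyte markers, 12 of them detected, 4 were higher and 0 lower, beside the same shares of all detected genes. A positive difference was found in 11 of the 14, with a median of 0.53 and sums of 84987 and 126944. Ms4a4c, at 9.67 and 13.61, and Ctss, at 13.44 and 14.95, had the largest differences among those detected on both arrays. Lyz2 read 15.72 and 15.78. The 2 detected monocyte markers with a negative difference were Cd14, at 9.78 and 9.34, and Cd68, at 12.56 and 12.27. Macrophage markers had a median of 0.22 and dendritic cell markers -0.14. The part of these cells in the higher Clec values was not tested. For scale, 9 of 9 interferon-stimulated genes measured, chosen with earlier results of these arrays known, were at least 2-fold higher, with a median of 3.31.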

How the data were processed

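Total RNA was extracted with TRIZOL, copied with oligo dT primers and labelled with Cy3, per the labels' protocols. The authors deposited linear intensity values per transcript, made with RMA (no version given), per the submitters' processing notes. RMA as generally defined equalises the distributions of arrays, so each difference is relative to other genes. Each member row summarises 3 probes, per the file headers. Another column of the deposited files, of unstated scale, was not used.

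Intensities were put on the log2 scale. Of 44170 transcript rows, 41886 had both a gene ID and a symbol, and list symbols were updated by gene ID through RefSeq (GRCm38.p6), which held 54 of the 62 members. A gene above the floor on 1 array has its bright value set against the floor of the other, written as at least that fold. With no replicates no test was run. The script that counts genes past the fold was tested on simulated data. Members and lists were chosen with earlier results of these data known. Members above a floor are named with both values. Of other lists, up to 3 of the highest and lowest detected are named, with genes that define a pathway or cell type, and some genes are not reported here. Alternatives were other floors, row means, loess centring (span 0.3), the series-wide table, floor-set values and folds of 1.5 and 3. Python 3.11.15, pandas 2.3.3 and statsmodels 0.14.6 were used.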

Additional observations from a re-analysis of the deposited data

How the results depend on the processing

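No paired analysis was possible because each group has 1 array. Depth does not apply to arrays, and their number limits the precision. No member counted as higher became 2-fold lower, or the reverse, under the alternatives run. The Klr median, -0.16 over the 10 detected genes, was positive in 4 settings, given here, each with 7 or fewer detected Klr genes. In the others it lay between -0.16 and -0.11. With a floor at the median row, the median difference of the other Clec genes (Clec2 included) was 0.45. At the 99th percentile of the receptor rows, 0 members and 0 Klr genes were lower, the Klr median was 0.80, the other Clec median 1.60, and 291 of all genes were lower. With no floor, 4 members, all 4 of them Klr genes, were lower, 8 myeloid Clec genes were higher, the other Clec median was 0.44, and 1411 of all genes were higher and 1435 lower. In the same setting 7 SYK list genes were higher and 1 lower, 2 ligand genes were lower and 3 other lectin genes were lower. With the mean of all rows, 1 myeloid Clec gene and 1 Klr gene were lower, the Klr median was 0.35, 1 other Clec gene was higher and 238 of all genes were lower. Loess centring left 0 members and 0 Klr genes lower. Where lower values were raised to the floor, the myeloid Clec median was 0.45 and the interferon-stimulated gene median 2.93. At 1.5-fold, 1 myeloid Clec gene was lower, 1257 of all genes were higher and 1339 lower, 9 SYK list genes and 1 phosphatase gene were higher and 2 other lectin genes lower. At 3-fold, 0 members were lower, 1 Klr gene was higher and 0 lower, 281 of all genes were higher and 84 lower, and 2 other lectin genes were higher. The next 3 settings were chosen after seeing the data. Where every detected row had to pass 2-fold, 1 member, a Klr gene, was lower. Without Klra genes that lack a RefSeq entry, 1 member, a Klr gene, was lower and the Klr median was 0.35. Without any Klra gene, 0 members and 0 Klr genes were lower, 1 Klr gene was higher and the members' median was 1.27. Only 1 Klr gene, Klrk1, was then detected, so the Klr value of 1.58 is its difference alone. The number of members at least 2-fold higher ran from 8, with the floor at the 99th percentile or without Klra genes, to 15 with no floor. At least 3-fold higher were 7. Of all detected genes, 6.41% were 2-fold higher with the floor at the 99th percentile, and 5.83% of all genes with no floor. At 3-fold the share of detected genes was 2.59%, and at 1.5-fold 11.6% were higher and 12.3% lower.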

Other observations

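Other genes of the C-type lectin class carry symbols that the rule did not match. Of 24 measured in a list of them, 15 were above a floor. Of these 15, 4 were higher by 2-fold or more in the knockout and 1 lower, against 5.53% and 4.06% of all detected genes. The largest difference was that of Cd69, given above. Cd302, which encodes a receptor of macrophages and dendritic cells, read 9.22 in wild-type cells and 10.36 in the knockout, but its other row differed by 0.01. Cd72, which encodes an inhibitory receptor of B cells, read 12.23 and 9.61, a 6.14-fold lower level, and its 4 rows ranged from -2.89 to 0.01. The median over all 24 genes was -0.10.

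Deposited symbols also hid members of the same families. Clec10a, the gene of the galactose-binding macrophage lectin, stands in the annotation as Mgl1 and read 9.03 and 9.30, above the floor in the knockout alone. Clec2j, Clec2m, Klra14-ps and Klrb1, also under other symbols there, were below both floors, with differences of -1.06, 0.52, -0.29 and -0.92.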
